A study of Mus musculus with 12 samples.

Results

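The miR-148 and miR-152 family is made up of the mouse microRNAs miR-148a-3p, miR-148b-3p and miR-152-3p, which share one seed. The members were taken by name from the annotated mouse rows of a small RNA count table, and they are 3 of its 1978 annotated miRNA entries and 3 of the 501 with any count. All 3 were detected in 12 of 12 libraries and passed the filter on low counts, which left 132 miRNAs for testing.

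The libraries were made from extracellular vesicles, membrane-bound particles that cells release into their medium, here collected by ultracentrifugation from cultured bone marrow mesenchymal stem cells of specific-pathogen-free C57BL/6 mice. The series is about stimulation with hydatid antigen, which comes from the larval stage of a tapeworm. Its design text names 3 preparations, ESPs, HCF and pLL, given to the cells at 2 µg/ml for 48 h. The libraries fall by title into 4 groups, PLL, NY, aFM and DZ, with replicates A, B and C in each. All 12 carry the same cell type, strain and antigen treatment label, and the labels give neither the meaning of NY, aFM and DZ, nor an unstimulated group, nor the age of the mice. DZ served only as a common comparator. Whether the 3 replicates of a group were separate cultures or separate mice is not stated, and p-values therefore cover no more than the spread among these libraries, which may be technical.

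A microRNA is loaded into an Argonaute protein and pairs with target transcripts mainly through its seed, so members of a seed family can share targets while being made from separate loci. For this family, reported targets include Dnmt1, which encodes the maintenance DNA methyltransferase, and Abca1, which encodes a lipid transporter, and miR-148a has been linked to adipocyte formation from mesenchymal progenitors. miR-148a is also known as an abundant miRNA of liver and of milk vesicles.

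The mature sequences of the 3 members are shown because their near identity bears on how reads are divided among them. They are from RefSeq for GRCm38.p6, 5′ to 3′, and capitals mark the seed, bases 2 to 8.
mmu-miR-148a-3p: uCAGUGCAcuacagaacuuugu
mmu-miR-148b-3p: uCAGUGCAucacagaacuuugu
mmu-miR-152-3p: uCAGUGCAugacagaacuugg

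The seed CAGUGCA was held by these 3 and by 0 others of the 1679 mature mouse names of the table that matched a RefSeq sequence. With positions counted from 1 at the 5′ end, and the base of the first-named miRNA written before the position, miR-148a-3p and miR-148b-3p differ by C9U and U10C over 22 bases. miR-148a-3p and miR-152-3p differ by C9U, U10G and U20G over 21 aligned bases, and miR-148b-3p and miR-152-3p by C10G and U20G. The rule used to assign reads that fit more than one of these sequences is not given in the sources used here, so the division of reads among the members is uncertain, most of all for the 2 scarcer ones.

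In GRCm38 the members lie on 3 chromosomes. The miR-148a-3p arm is at chr6:51269829-51269850 on the minus strand, within the Mir148a hairpin, which overlaps no other gene in the GENCODE annotation. The miR-148b-3p arm is at chr15:103285185-103285206 on the plus strand, in an intron of Copz1, a coatomer subunit gene of the same strand. The miR-152-3p arm is at chr11:96850439-96850459 on the plus strand, in an intron of Copz2, which encodes the paralogous coatomer subunit and is also on that strand.

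Libraries held 68647 to 214303 counts in all and 17607 to 60436 counts on annotated miRNAs, and the rest fell on predicted loci that name no gene. The annotated share was 43.9% ± 15.9 in PLL, 23.7% ± 6.23 in NY, 15.4% ± 4.61 in aFM and 17.5% ± 6.23 in DZ (SD, n = 3 each), and it was highest in PLL replicate A at 60.7%. Levels below are CPM, a library's counts scaled to a common total with trimmed mean of M-values (TMM) factors. That total was the counts on the 132 annotated miRNAs that were tested. They are levels relative to the other annotated miRNAs, so less of a miRNA in the vesicles and more of the others cannot be told apart. All 7 miRNAs of the mesenchymal marker list were tested; its summed level was 51168 to 155497 CPM in PLL, 95142 to 101495 CPM in NY, 80270 to 96355 CPM in aFM and 88309 to 104190 CPM in DZ. Haematopoietic markers were present too, at 49969 to 72672 CPM in PLL, 66695 to 135382 CPM in NY, 50562 to 85649 CPM in aFM and 65635 to 143092 CPM in DZ.

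miR-148a-3p made up nearly all of the family in every library and was among the most abundant miRNAs of these vesicles. It had 176869, 45777 and 41891 CPM in PLL replicates A, B and C, 51595, 60156 and 51828.5 CPM in NY, 83930, 91588 and 95476 CPM in aFM, and 46025, 45726 and 62902 CPM in DZ. The 3 aFM libraries were higher than all DZ and NY libraries, PLL replicate A was the highest of the 12, PLL replicate B lay between the 2 lower DZ libraries, and PLL replicate C was the lowest of the 12. By count among annotated miRNAs it ranked 1, 3 and 7 in PLL replicates A, B and C, 6 to 7 in NY, 1 in all 3 aFM libraries and 3 to 8 in DZ. Between 743 and 7688 reads per library stood behind these levels, a counting error of 1.14% to 3.67%.

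miR-148b-3p was the scarcest member. It had 4279, 1276 and 1034 CPM in PLL, 842, 851 and 507 CPM in NY, 814, 1009 and 583 CPM in aFM, and 1053, 1156 and 808 CPM in DZ. All 3 PLL libraries lay above every NY and aFM library, although PLL replicate C exceeded the highest aFM library by little, and the PLL and DZ ranges overlapped. These levels rest on 15 to 186 reads per library, a counting error of 7.33% to 25.8%.

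miR-152-3p lay between the other members and was the flattest of them outside PLL replicate A. It had 8351, 2067 and 2424 CPM in PLL, 2189, 3279 and 1892 CPM in NY, 2828, 1830 and 2364 CPM in aFM, and 2787, 2197 and 2156 CPM in DZ. The 4 groups overlapped in every pair. It was counted 38 to 363 times per library, a counting error of 5.25% to 16.2%, and ranked 28 to 51 by count.

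**Figure D1:**
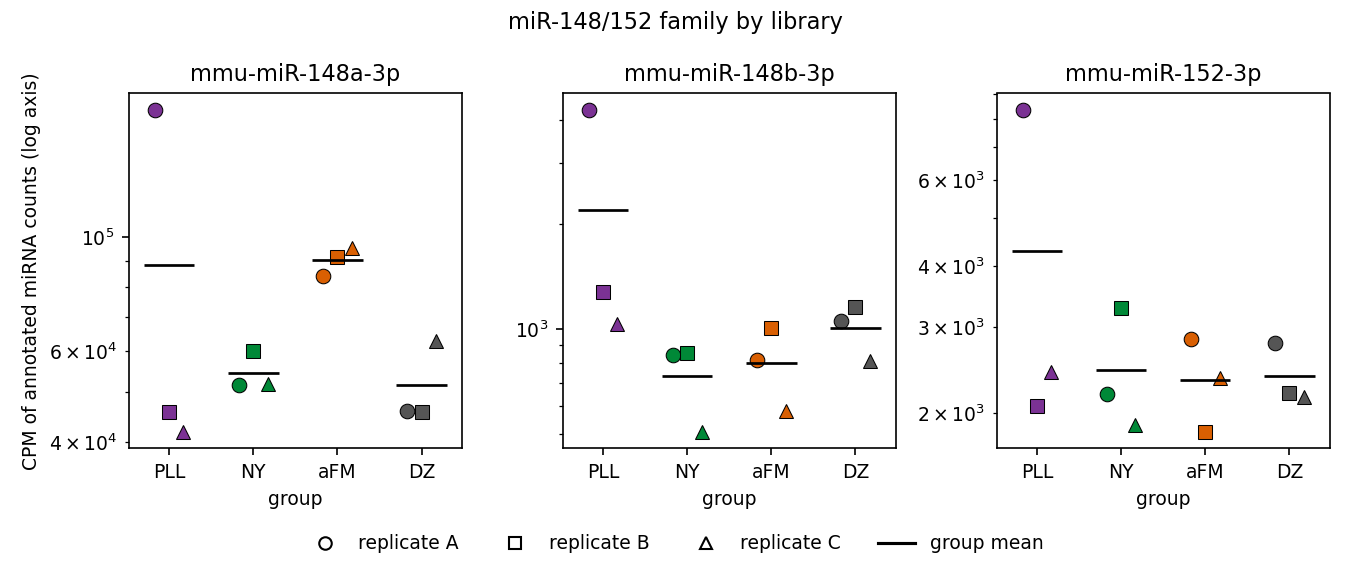
CPM of annotated miRNA counts on a log axis for the 3 members, by group; each point is one library, its shape is the replicate letter and the bar is the group mean. PLL replicate A, at 176869, 4279 and 8351 CPM, is the highest library for all 3 members, and the 3 aFM libraries of miR-148a-3p (83930 to 95476 CPM) lie above all NY and DZ libraries.

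The summed family averaged 94656 ± 82158 CPM in PLL, 57713 ± 5696 CPM in NY, 93474 ± 5488 CPM in aFM and 54937 ± 9473 CPM in DZ (SD, n = 3 each). The PLL mean and its SD were set by replicate A, and the mean of replicates B and C was 47235 CPM. miR-148a-3p averaged 88179 ± 76832.5 CPM in PLL, 54527 ± 4876 in NY, 90331 ± 5874 in aFM and 51551 ± 9831 in DZ. By these means aFM was followed by PLL, NY and DZ, but replicates B and C alone averaged 43834 CPM, which would put PLL last; NY and DZ did not differ beyond their spread. miR-148b-3p averaged 2196 ± 1808 CPM in PLL, 733 ± 196 in NY, 802 ± 213 in aFM and 1006 ± 179 in DZ. Its order from high to low was PLL, DZ, aFM and NY, with each neighbouring pair within its spread, and PLL replicates B and C averaged 1155 CPM. miR-152-3p averaged 4281 ± 3530 CPM in PLL, 2453 ± 730 in NY, 2341 ± 499 in aFM and 2380 ± 354 in DZ, and no neighbours in its order differed beyond their spread; PLL replicates B and C averaged 2246 CPM.

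PLL replicate A stood apart from its group in all 3 members at once. Its level was 4.03 times the mean of replicates B and C for miR-148a-3p, 3.72 times for miR-152-3p and 3.70 times for miR-148b-3p, which put the members at ranks 10, 14 and 15 of the 132 tested miRNAs by this ratio. The median log2 ratio over all tested miRNAs was -0.09, and 29 of the 132 (22.0%) were above 1, so the 3 members belonged to a larger set that was high in that library. In every other group each member stayed within 0.74 log2 units of the mean of its group mates. The ratios in PLL depend on TMM factors of 0.730 for replicate A, 1.13 for B and 1.10 for C. Scaled to annotated totals without these factors, the contrast was smaller. Replicate A then had 127209 CPM of miR-148a-3p, beside a mean of 48021 CPM in B and C. The values were 6006 beside 2456 CPM for miR-152-3p and 3078 beside 1266 CPM for miR-148b-3p. The mesenchymal marker sum was also highest in PLL replicate A, at 155497 CPM, beside 59326 and 51168 CPM in PLL replicates B and C. Most of it there was miR-140-3p, a miRNA best known from cartilage, at 101387 CPM beside 5486 and 5204 CPM. The list did not rise as a whole. miR-199a-3p and miR-199a-5p were also higher in replicate A than in B and C. miR-143-3p was lower (29402 CPM beside 44960 and 38142 CPM), as were miR-145a-5p, miR-145a-3p and miR-214-3p. The part of this library's make-up in the family's level was not tested. Tests that involve PLL are given with and without it, a choice made after its values were seen.

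**Figure D2:**
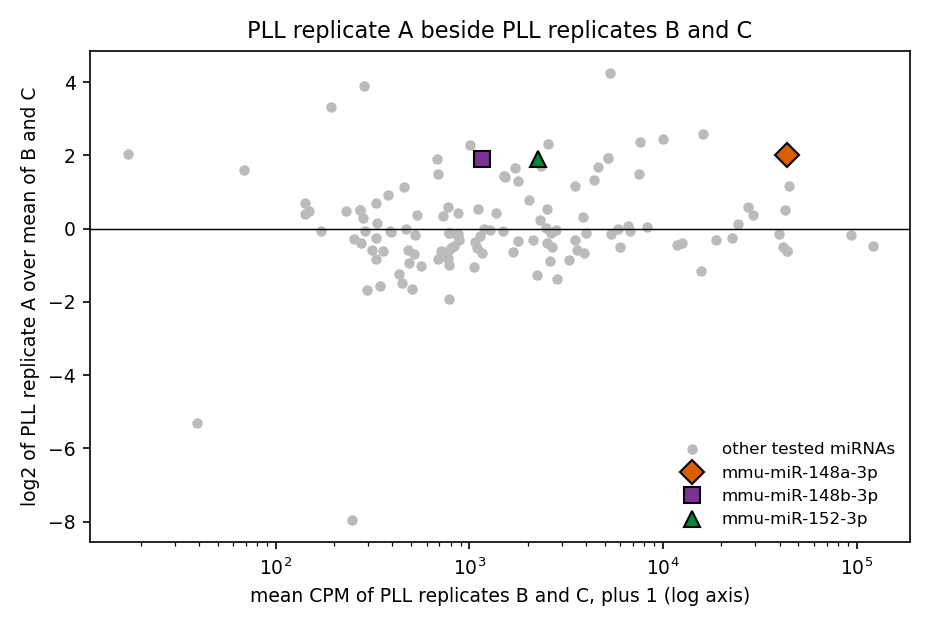
Log2 ratio of PLL replicate A to the mean of PLL replicates B and C (vertical axis) against that mean in CPM plus 1 on a log axis, one point per tested miRNA. The 3 members lie close together near a ratio of 2 log2 units at 3 very different levels, while the median of all 132 was -0.09.

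The first question was whether the family differed between any groups. With all 12 libraries in the fit it did not pass the test anywhere: 0 of 3 members had an adjusted p under 0.05 by edgeR's quasi-likelihood test in any of the 6 pairwise comparisons or in the joint test of the 4 groups. Over all tested miRNAs, 3.79% were called in PLL against DZ, 0.758% in NY against DZ, 18.9% in aFM against DZ, 9.09% in PLL against aFM, 6.82% in PLL against NY, 3.79% in NY against aFM and 12.1% in the joint test. At an unadjusted p under 0.05 the count was 1 of 3, miR-148b-3p, in each comparison of PLL with another group and in the joint test, and 0 of 3 in the others. The share of all tested miRNAs with such a p was 28.0% in PLL against DZ, 32.6% in PLL against aFM, 21.2% in PLL against NY and 41.7% in the joint test, so 1 of 3 was near the background. DESeq2 called miR-148b-3p in PLL against NY (log2 fold change 1.55, adjusted p = 0.0307) and in the joint test (adjusted p = 0.0373), against 9.92% and 27.5% of all miRNAs given an adjusted p, and made 0 calls among the members in the other 5 comparisons. With no filter on low counts, edgeR called miR-148a-3p in the joint test (adjusted p = 0.0280), where 7.58% of all miRNAs were called.

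miR-148b-3p gave the largest fold changes of the family in the PLL comparisons. Its log2 fold change was 1.58 ± 0.51 (SE) in PLL against NY, with an adjusted p of 0.0977 by edgeR. It was 1.46 ± 0.51 in PLL against aFM (adjusted p = 0.0939) and 1.14 ± 0.52 in PLL against DZ (adjusted p = 0.170). Its groups did not overlap in PLL against NY and in PLL against aFM, where 31.8% and 38.6% of all tested miRNAs did not overlap either. None of the 3 members was free of overlap in PLL against DZ or in NY against DZ, where the shares of all tested miRNAs were 21.2% and 15.9%. Without PLL replicate A the fold change of miR-148b-3p was 0.67 ± 0.37 in PLL against NY (adjusted p = 0.455), 0.47 ± 0.37 in PLL against aFM (0.425) and 0.17 ± 0.38 in PLL against DZ (0.820). Without PLL replicate C, in contrast, the fold change in PLL against NY was 1.75 and passed the test with an adjusted p of 0.0410 by edgeR, in a fit that called 6.16% of miRNAs there.

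miR-152-3p had fold changes of like size in the 3 PLL comparisons, and none passed the test. The log2 fold change was 0.88 ± 0.48 in PLL against aFM (adjusted p = 0.207), 0.85 ± 0.48 in PLL against DZ (0.246) and 0.81 ± 0.47 in PLL against NY (0.310), all by edgeR. Without PLL replicate A each of the 3 lay between -0.13 and -0.12, and the joint test gave an adjusted p of 0.976. The direction of miR-152-3p in PLL thus rested on 1 library when annotated miRNAs alone were fitted.

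miR-148a-3p was higher in all 3 aFM libraries than in the NY and DZ libraries and in PLL replicates B and C, though not than in PLL replicate A, and its calls between aFM and another group were made only in fits without that library. In aFM against DZ its log2 fold change was 0.81 ± 0.44 with an adjusted p of 0.270 with all 12 libraries, and 0.83 ± 0.15 with an adjusted p of 0.00248 without PLL replicate A, by edgeR. For NY against aFM the values were -0.73 ± 0.44 (adjusted p = 0.310) with that library and -0.81 ± 0.15 (0.00379) without it. The fold changes hardly moved, while the biological coefficient of variation fitted for this miRNA was 18.5% without the library, against 40.7% with it. In PLL against aFM the value itself moved, to -1.11 ± 0.17 (adjusted p = 0.00178) without the library, against -0.03 ± 0.44 (0.952) with it. The joint test gave an adjusted p of 0.00136 without it and 0.264 with it. PLL replicate A was left out after its levels of these members were seen. The adjusted p-values without it are therefore not those of a planned test. With all 12 libraries the log2 fold change was 0.77 ± 0.44 in PLL against DZ (adjusted p = 0.246), 0.69 ± 0.44 in PLL against NY (0.327) and 0.08 ± 0.44 in NY against DZ (0.984), by edgeR.

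In the fit without PLL replicate A, miR-148a-3p was the only member called, in 3 comparisons and in the joint test. The shares of all tested miRNAs called there were 17.8% in aFM against DZ, 8.22% in PLL against aFM, 8.22% in NY against aFM and 13.0% in the joint test. miR-148a-3p was also the only member whose libraries did not overlap in aFM against DZ and in NY against aFM, where 34.1% and 43.9% of all tested miRNAs did not overlap. PLL against DZ did not pass the test for miR-148a-3p in that fit (log2 fold change -0.28, adjusted p = 0.408), nor did PLL against NY (-0.30, 0.455). The calls rest on few libraries: leaving out aFM replicate C as well ended the call in aFM against DZ (0.66, adjusted p = 0.0516 by edgeR), for NY against aFM (0.0689) and in the joint test (0.0546). Leaving out aFM replicate B ended the call in NY against aFM (0.0563), and leaving out PLL replicate C ended the one in PLL against aFM (-1.003, adjusted p = 0.0803), where PLL then had 1 library, assumed to vary like those of the other groups. Upper quartile scaling ended the calls in aFM against DZ (0.46, adjusted p = 0.0868 by edgeR) and for NY against aFM (-0.51, 0.0587), not the one in PLL against aFM (-0.79, 0.0326). With predicted loci kept in the fit none of these calls remained by edgeR: the log2 fold change of miR-148a-3p was 0.35 in aFM against DZ (adjusted p = 0.774), -0.15 in NY against aFM (0.875) and, with the sign turned, 0.41 in PLL against aFM (0.639), and the joint test gave 0.698.

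**Figure D3:**
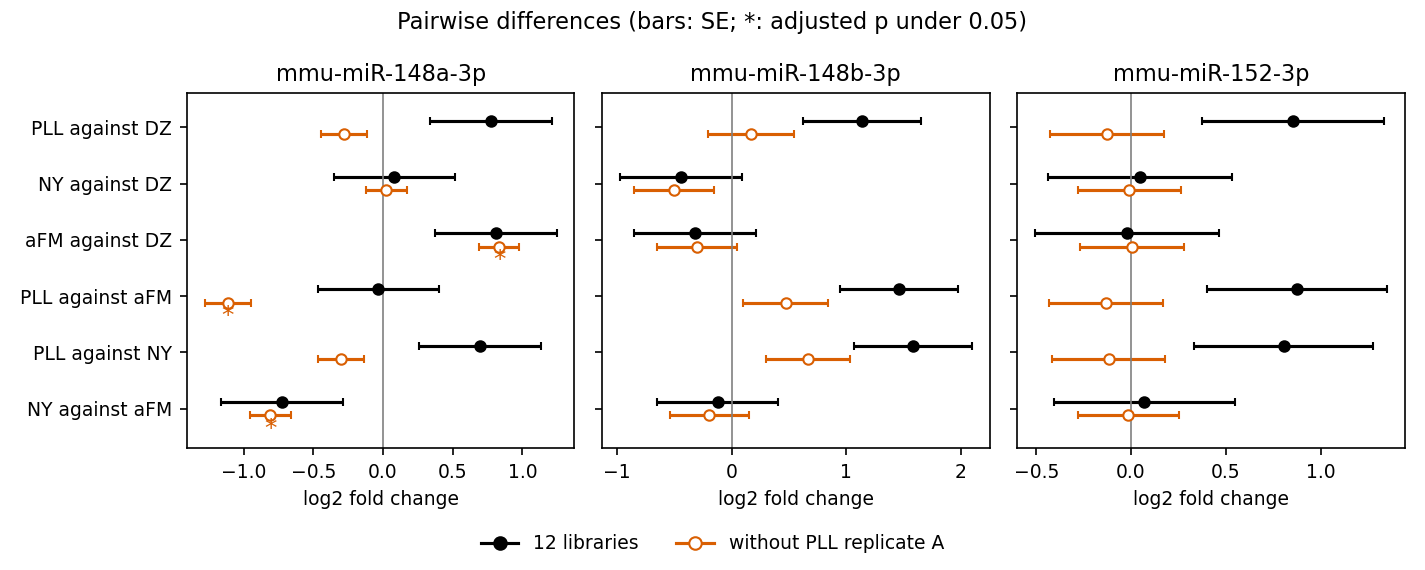
Log2 fold changes of the 3 members in the 6 pairwise comparisons with their SE, from the fit of 12 libraries (filled) and the fit without PLL replicate A (open); asterisks mark an adjusted p under 0.05 by edgeR, and the horizontal scale differs by panel. The fold changes of miR-148a-3p that set aFM against DZ and NY are alike in both fits (0.81 and 0.83, -0.73 and -0.81), whereas the PLL comparisons move by about 1 log2 unit.

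The size of the PLL differences and their calls also depended on what the family was measured against. With the predicted loci kept in the fit, all 3 members were called higher in PLL than in DZ and 2 of 3, miR-148b-3p and miR-152-3p, were called higher in PLL than in aFM and NY; 3 of 3 were called in the joint test. That fit called 35.3%, 36.5%, 25.6% and 52.8% of all 853 rows in these comparisons, but only 141 of the rows were annotated miRNAs. Of those 141, 53.9%, 80.1%, 48.2% and 67.4% had an unadjusted p under 0.05 by edgeR in the same order, as did all 3 members. Without PLL replicate A, the fit with predicted loci called 0 of 3 members in PLL against DZ, 1 of 3 in PLL against aFM (miR-148b-3p, log2 fold change 2.02, adjusted p = 0.0433 by edgeR), 0 of 3 in PLL against NY and 0 of 3 in the joint test, against 17.5%, 23.4%, 17.1% and 38.8% of all rows. miR-148b-3p had an unadjusted p under 0.05 there in PLL against aFM, in PLL against NY and in the joint test, and miR-152-3p in PLL against aFM. The share of annotated miRNAs with such a p in that fit was 52.9% in PLL against aFM, 16.3% in PLL against NY and 36.6% in the joint test. With all 12 libraries and predicted loci, the median log2 fold change of the 3 members was 2.62 in PLL against DZ, 3.02 in PLL against aFM and 2.27 in PLL against NY, and the medians of all annotated miRNAs tested were 1.73, 2.13 and 1.49. Without PLL replicate A they were 1.11, 1.49 and 0.74 for the members and 1.14, 1.66 and 0.91 for all annotated miRNAs tested. In the fit of annotated miRNAs alone, with 12 libraries, these medians were 0.85, 0.88 and 0.81 for the members and 0.22, 0.31 and 0.17 for all tested miRNAs. Set against all counts of a library in place of the annotated ones, the mean family CPM was 39699.5 in PLL (18175 in replicates B and C), 13357 in NY, 15277 in aFM and 9776 in DZ.

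Ratios within a library do not depend on scaling, and the proportions of the members varied among the libraries. The ratio of miR-148a-3p to miR-152-3p reads was 21.2, 22.1 and 17.3 in PLL, 23.6, 18.3 and 27.4 in NY, 29.7, 50.0 and 40.4 in aFM, and 16.5, 20.8 and 29.2 in DZ. The 3 aFM libraries had the highest 3 ratios of the 12, though aFM replicate A exceeded DZ replicate C by little. The ratio of miR-148a-3p to miR-148b-3p was 41.3, 35.9 and 40.5 in PLL, 61.3, 70.7 and 102 in NY, 103, 90.8 and 164 in aFM, and 43.7, 39.5 and 77.8 in DZ. It was lower in every PLL library than in every NY and aFM library, and PLL and DZ overlapped. The mean of this ratio was 39.2 ± 2.94 in PLL, 78.1 ± 21.5 in NY, 119 ± 39.0 in aFM and 53.7 ± 21.0 in DZ (SD, n = 3 each). These ratios are descriptions, and no test was made of them.

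PLL replicate A did not stand apart in these ratios. Its 3 proportions were 93.3% miR-148a-3p, 2.26% miR-148b-3p and 4.41% miR-152-3p, beside 93.2%, 2.60% and 4.21% in replicate B and 92.4%, 2.28% and 5.35% in replicate C. The share of miR-148a-3p in the family was 93.0% ± 0.519 in PLL, 94.5% ± 1.00 in NY, 96.6% ± 0.669 in aFM and 93.7% ± 1.66 in DZ (SD, n = 3 each). Reads of the members are not molecules of them, so these shares describe the libraries.

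**Figure D4:**
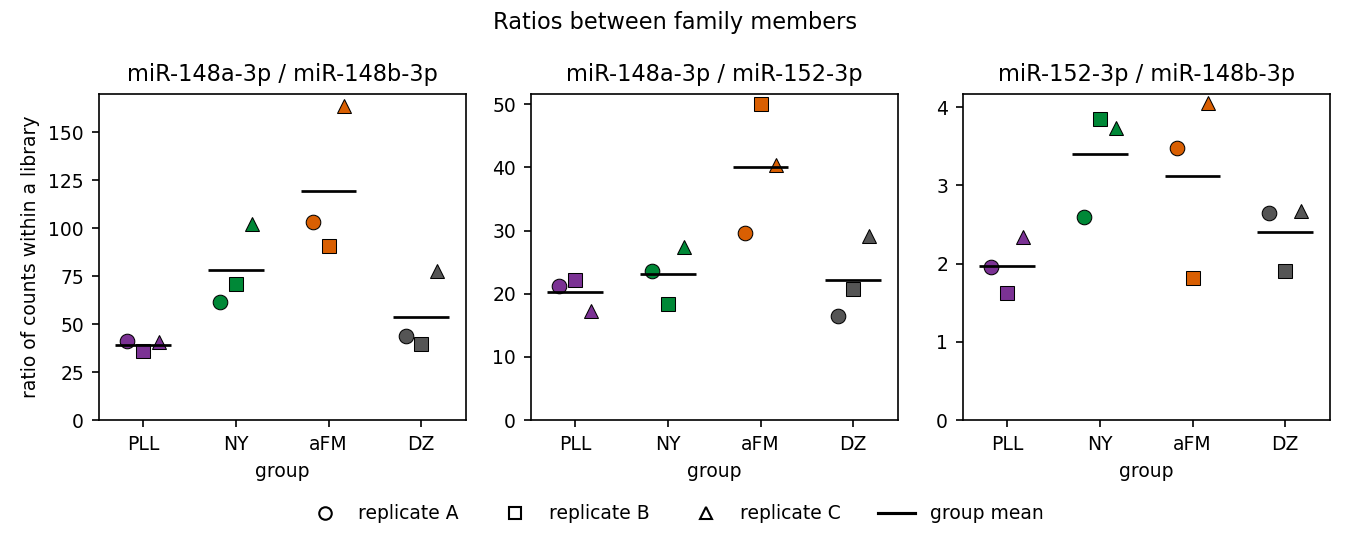
Ratios of read counts between members within each library, by group; shapes give the replicate letter and bars the group mean. aFM has the highest ratios of miR-148a-3p to miR-152-3p (29.7 to 50.0), and the PLL libraries, replicate A included, have ratios of miR-148a-3p to miR-148b-3p of 35.9 to 41.3, below all NY and aFM libraries.

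Across the 12 libraries the correlation between members rested on PLL replicate A. Over the 3 pairs, Pearson's r of log2(CPM + 1) was 0.801 for miR-148b-3p with miR-152-3p (permutation p = 0.0731, adjusted 0.126), with Spearman's rho of 0.287 (permutation p = 0.363, adjusted 0.545). It was 0.671 for miR-148a-3p with miR-152-3p (permutation p = 0.0843, adjusted 0.126; rho 0.175, p = 0.590) and 0.499 for miR-148a-3p with miR-148b-3p (permutation p = 0.160; rho -0.287, p = 0.364, adjusted 0.545). With the 2 libraries farthest from the median left out, PLL replicate A among them each time, r was -0.25, -0.03 and -0.23 for these pairs in the same order. Without PLL replicate A alone r was 0.074, -0.01 and -0.43. Outside that library the counting error was 14.1% to 25.8% for miR-148b-3p and 9.81% to 16.2% for miR-152-3p. Such noise lowers r, so these values cannot decide whether the members vary together.

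The miRNAs whose levels over the 12 libraries were most like each member were also shaped by that library. For miR-148a-3p they were miR-99a-5p (r = 0.918), let-7a-5p (0.880) and miR-10b-5p (0.865), and without PLL replicate A these values were 0.811, 0.802 and 0.739. For miR-148b-3p they were miR-103-3p (r = 0.910), miR-140-3p (0.895) and let-7g-5p (0.833), with values of 0.653, 0.460 and 0.082 without that library. For miR-152-3p they were miR-27a-3p (r = 0.892), miR-140-3p (0.876) and miR-27b-3p (0.852), with values of 0.429, -0.03 and 0.046. Likeness to the 3 neighbours thus held best for miR-148a-3p, which also had the smallest counting error of the members, at 1.14% to 3.67%. The counting error was 7.33% to 25.8% for miR-148b-3p and 5.25% to 16.2% for miR-152-3p. Its part in the lower values was not tested. These are descriptions over 12 libraries that share their TMM scaling and PLL replicate A.

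The opposite arms of the 3 hairpins were nearly unread. miR-148a-5p had 41 reads in all, 0.155% of the reads of both arms (95% exact binomial interval 0.111% to 0.210%), and miR-148b-5p had 3, or 0.651% (0.134% to 1.89%). miR-152-5p had 28 reads, or 2.54% (1.69% to 3.65%), so its share exceeded that of miR-148a-5p beyond counting error. By group it was 0.954% (0.311% to 2.21%) in PLL, 6.25% (3.54% to 10.1%) in NY, 3.03% (1.12% to 6.48%) in aFM and 1.42% (0.172% to 5.03%) in DZ. Of the 15 NY reads 11 were in replicate C and 0 in replicate A, so the group value was not a property of all its libraries. No opposite arm passed the filter.

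Markers of liver and gut were high in some libraries with much miR-148a-3p and not in others. Their summed level in replicates A, B and C was 5429, 5282 and 10570 CPM in PLL and 18166, 19461 and 15872 CPM in aFM. It was 4522, 5954 and 47196 CPM in DZ replicates A, B and C, and 3815 to 3974 CPM in NY. In aFM and in DZ replicate C most of it was miR-122-5p, the main miRNA of hepatocytes, at 15124, 15949 and 13723 CPM in aFM and at 38727 CPM in DZ replicate C. aFM, the group with the most miR-148a-3p, and DZ replicate C, the DZ library with the most, thus held the most of these markers as well. Other libraries went the other way. PLL replicate A, the library with the most miR-148a-3p, had 5429 CPM of the markers. PLL replicate C, with the least miR-148a-3p of the 12 libraries, had the most of the markers within PLL. Within aFM, replicate C had the most miR-148a-3p and the least of the markers. Of the 4 listed markers 2 were tested, and 0 of these were called in the joint test by edgeR (adjusted p = 0.0905 for miR-192-5p and 0.0915 for miR-122-5p), while both had an unadjusted p under 0.05. In aFM against DZ these 2 did not rise, with log2 fold changes of -0.02 ± 0.77 for miR-122-5p and -0.63 ± 0.53 for miR-192-5p. The part of the liver and gut markers in the miR-148a-3p result was not tested. Tested blood cell markers had negative fold changes in aFM against DZ, where that of miR-148a-3p was positive. Of all 132 tested miRNAs, 18.9% were called in aFM against DZ. Of the 8 on the haematopoietic list 3 were tested, and 2 of these were called lower in that comparison by edgeR. They were miR-486a-5p (log2 fold change -1.07 ± 0.33, adjusted p = 0.0415), whose reads cannot be told from those of miR-486b-5p, and miR-142a-5p (-0.91 ± 0.28, 0.0415). The list's median was -0.91 there, beside -0.14 over all tested miRNAs, and its part in the miR-148a-3p result was not tested. Of the mesenchymal list 1 of 7 was called lower in aFM against DZ, miR-145a-5p (adjusted p = 0.0415), at 85.7, 0 and 0 CPM in aFM and 124, 867 and 423 CPM in DZ. Epithelial markers stayed low, at 550 to 920 CPM in PLL, 568 to 842 CPM in NY, 300 to 921 CPM in aFM and 743 to 2255 CPM in DZ.

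Other miRNAs reported to act on the family's known target processes were called in both directions. Of the 7 miRNAs listed for Dnmt transcripts 4 were tested, and in aFM against DZ 1 was called higher, miR-126a-3p, best known from endothelium (log2 fold change 2.63 ± 0.46, adjusted p = 0.00470 by edgeR), and 1 lower, miR-185-5p (-1.30 ± 0.34, 0.0390). miR-126a-3p was also called in PLL against NY (1.76 ± 0.45, adjusted p = 0.0356), in NY against aFM (-3.06 ± 0.46, 0.00346) and in the joint test (0.00174). The median log2 fold change of the 4 in aFM against DZ was -0.12, beside -0.14 over all tested miRNAs. Of all tested miRNAs, 18.9% were called in aFM against DZ and 6.82% in PLL against NY. The shares were 3.79% in NY against aFM and 12.1% in the joint test.

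Of the 6 miRNAs listed for adipogenesis 4 were tested. miR-143-3p was called lower in PLL than in DZ (log2 fold change -1.13 ± 0.17, adjusted p = 0.00202), than in aFM (-0.99 ± 0.17, 0.00442) and than in NY (-1.14 ± 0.17, 0.00119), all by edgeR. In aFM against DZ miR-378a-3p was called higher (1.45 ± 0.46, adjusted p = 0.0471) and miR-21a-5p lower (-0.58 ± 0.16, 0.0415), and miR-21a-5p was higher in NY than in aFM (0.74 ± 0.16, 0.0270). The median log2 fold change of the 4 in aFM against DZ was -0.20. Of all tested miRNAs, 18.9% were called in aFM against DZ, 3.79% in PLL against DZ and 9.09% in PLL against aFM. The shares were 6.82% in PLL against NY and 3.79% in NY against aFM.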

How the data were processed

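The deposited table gave raw whole-number counts for each miRNA or predicted locus in 12 libraries, as its values show. Per the submitters' processing notes, FastQC, STAR, StringTie and DESeq2 were used with build mm39, and no versions or roles are given. The program that called miRNAs, and its treatment of multiply mapped reads, are not stated there. Per the labels' protocols, RNA was checked for mRNA sequencing, although a kit for small RNA is named in the series' design.

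The table held 3509 rows, of which 1978 carried mouse miRNA names. The 1531 predicted loci name no gene and stayed out of library sizes and tests, except in an alternative with all rows. filterByExpr (minimum count 10, minimum total 15) left 132 miRNAs, which held 98.0% or more of the annotated counts in every library. All 12 libraries were scaled by TMM and fitted with a term per group in edgeR 4.0.16 (R 4.3.3, limma 3.58.1). Quasi-likelihood tests (two-sided) were adjusted by Benjamini-Hochberg over all tested miRNAs, at a threshold of 0.05. SEs are the absolute log2 fold change over the square root of the F statistic. DESeq2 1.42.0 was an alternative, and the steps were tested on simulated data. A count of 0 allows up to 3 counts, or 69.0 to 186 CPM by library; such limits and intervals cover counting error alone, because PCR copies were not marked by molecular identifiers.

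The members and lists were chosen with earlier results of these data known. The miRNAs named were the members, their opposite arms and the 3 tested miRNAs of highest Pearson's r with each member. Called miRNAs of the target-process and marker lists were named too. So were marker miRNAs whose level moved with a member in some libraries, which were chosen after their values were seen. Other alternatives were RLE and upper quartile factors, library totals, no filter, each library left out and a replicate block; combining these with PLL replicate A left out was chosen after seeing the data. Fits without PLL replicate A tested 146 miRNAs. Within groups every pair of libraries differed by more than sampling noise (chi-square per degree of freedom 6.27 to 99.2). No label states that the replicate letters pair libraries. Deviations from the group means of same-letter libraries correlated at over 0.1 for all 3 letters in NY against DZ alone (0.132 to 0.340). The values were 0.0615 to 0.229 in aFM against DZ. These correlations were not tested and do not establish a pairing. Sequences and loci are from RefSeq and GENCODE for GRCm38, not the build in the notes, and no coordinate of the files was used.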

Additional observations from a re-analysis of the deposited data

How the results depend on the processing

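With 12 libraries, the number of members called was 0 in every comparison under RLE factors, upper quartile factors, library totals and the replicate block. It was 3 in PLL against DZ, 2 in PLL against aFM, 2 in PLL against NY and 3 in the joint test with all rows, 1 in PLL against NY and 1 in the joint test with DESeq2, and 1 in the joint test with no filter (miR-148a-3p, 7.58% of all called). Leaving out 1 library at a time gave 0 to 1 in aFM against DZ, PLL against aFM, PLL against NY, NY against aFM and the joint test, through PLL replicate A or, in PLL against NY, PLL replicate C. With all rows the log2 fold change of miR-148a-3p in PLL against aFM reversed to 2.07. Over the leave-one-out fits it ran from -1.11 to 0.043, and in PLL against DZ from -0.28 to 0.88. For miR-152-3p such fits gave -0.13 to 0.96 in PLL against aFM, -0.13 to 0.90 in PLL against DZ and -0.12 to 1.05 in PLL against NY. With the replicate block, miR-148b-3p had log2 fold changes of 1.44 in PLL against NY (adjusted p = 0.103 by edgeR) and 1.29 in PLL against aFM (0.117), and the block changed no member's call in any of the 6 comparisons or the joint test, NY against DZ included.

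With PLL replicate A left out, 1 member was called in aFM against DZ, PLL against aFM, NY against aFM and the joint test, and the count was the same with RLE factors, library totals, no filter, DESeq2 and the replicate block. It was 0 with upper quartile factors in aFM against DZ and in NY against aFM, 0 with all rows in aFM against DZ, NY against aFM and the joint test, and 0 to 1 when another library was left out too, where the log2 fold change of miR-148a-3p was 0.66 to 0.98 in aFM against DZ, -1.15 to -0.99 in PLL against aFM and -0.84 to -0.69 in NY against aFM. With all rows miR-148a-3p reversed in PLL against aFM, to 0.41, and the largest other member fold change was 2.02 (adjusted p = 0.0433 by edgeR). The causes were not tested. Counts of 15 to 186 for miR-148b-3p and 38 to 363 for miR-152-3p limit what these libraries can show for those members.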
